A study of Mus musculus with 20 samples.

Results

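The genes described here encode the proteins of the cytosolic ribosome in mouse colonic eosinophils and macrophages. They were chosen by gene name: Rpl or Rps followed by a number and at most one of the letters a, x, l or y, together with Rplp0, Rplp1, Rplp2 and Rpsa. Entries whose names end in -ps, which mark pseudogenes, were left out. The rule found 82 of the 50573 named entries, 50 for the large subunit and 32 for the small subunit. A few ribosomal proteins carry other names, such as Rps3a1 and Fau, and are therefore not among the 82.

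Eosinophils and macrophages were sorted by flow cytometry after enzymatic digestion of the colon, and their RNA was measured in bulk by CEL-Seq, a method that counts the 3′ ends of polyadenylated transcripts. All groups were C57BL/6 wild-type mice with no transgene or deletion named. They comprised eosinophils of the naive colon (2 libraries) and intratumoral eosinophils of mice carrying tumors (7), whose disease state the labels give as CAC. The other groups were macrophages of the naive colon (5) and intratumoral macrophages of mice with that disease state (6). The tumor groups thus differ from the naive groups in the tissue the cells lay in as well as in the state of the mice, and these cannot be told apart. The sources used here do not give ages, sorting markers or whether a library pooled several mice. Each RNA sample was made into 3 technical replicates with different primer pools, which the tables do not show apart. Nothing states that the libraries of a group came from separate mice, so the p-values measure only the spread between these libraries. Depth ran from 1476106 to 8513797 reads per library, and the 82 genes took 61695 to 431391 reads of a library.

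The cytosolic ribosome is built from a large and a small subunit, each of folded ribosomal RNA and a set of proteins, most of them present in a single copy. The large subunit forms peptide bonds and carries the stalk on which elongation factors act, and the small subunit binds the messenger RNA and reads its codons. In mice the messenger RNAs of these proteins typically start with a C followed by a run of pyrimidines, the 5′ terminal oligopyrimidine motif, through which mTOR signalling adjusts their translation. Growing and secreting cells make many ribosomes, whereas mature granulocytes are known for a condensed nucleus and little ribosome production.

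The promoters of the members shared short sequences near their starts. RefSeq entries (GRCm38.p6; 250 bases before and 50 after an annotated start) were held for 60 of the 82 members, in 72 entries. A run of at least 7 pyrimidines that begins with C was searched within 50 bases of the start, on the strand that reads like the transcript. It was present in 81.9% of the members' entries and in 40.2% of all 32851 promoter entries. The run was found in 84.1% of large-subunit and 78.6% of small-subunit entries. The letters CTTCCGG, the core bound by ETS factors, searched on both strands, were present in 36.1% of the members' entries and in 8.86% of all entries. TATAAA was present in 8.33% against 13.6%, and CACGTG in 11.1% against 7.15%. The next stretches show the run nearest to the annotated start, with the run in capitals and each stretch read 5′ to 3′. Rpl19, Rps19 and Rps27 are members that rose in tumor eosinophils, Rpl5, Rpl4 and Rps7 are members that did not pass that test, and Rpl3l was almost without reads in either cell type.
Rpl19: ggcttgggCTCTCCCCTTCgcagataatgg
Rps19: gtggagggCTCTCCCacgcggtcaccacgc
Rps27: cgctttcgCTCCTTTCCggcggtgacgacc
Rpl5: tacagccaCTCTTTCTCacgtcgcttgcgt
Rpl4: tgacaagtCTTTCCTTTTCCTgtgggagca
Rps7: cggtccaaCTCTTTTCagaagagcttccgg
Rpl3l: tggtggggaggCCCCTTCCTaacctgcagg
The stretch of Rpl19 lies at chr11:98026905-98026934 on the plus strand and that of Rps27 at chr3:90213629-90213658 on the minus strand. In eosinophils the 49 tested members with a run had a median log2 change of 0.53 and the 8 without one had a median of 0.72. In macrophages the medians were 0.00 and −0.02. Rpsa, the member with the most positive change in eosinophils, had no such run in its window. Counted from the annotated start, the printed runs begin at −11 (Rpl19), 6 (Rps19), −2 (Rps27), −20 (Rpl5), −17 (Rpl4), −29 (Rps7) and 31 (Rpl3l). None thus begins exactly at the annotated start, and a run in the window need not be the start of a transcript. A match is a description of the letters in the window, and annotated starts can be off by some bases.

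As a share of all reads, the ribosomal protein genes took less of the eosinophil libraries than of the macrophage libraries, and more of the tumor than of the naive eosinophil libraries. They took 2.05 and 2.51% of the reads of naive eosinophils 1 and 2. In the 7 tumor eosinophil libraries they took between 2.97 and 4.28%, with a median of 3.20%. Every tumor library thus lay above both naive libraries. The small subunit took 0.783 and 0.795% in naive and 1.19 to 1.55% in tumor eosinophils. The large subunit took 1.26 and 1.72% in naive and 1.76 to 2.73% in tumor eosinophils, so that the higher naive library lay just under the lowest tumor library. Rpl4, a large-subunit protein at the peptide exit tunnel, held 16.3 and 27.7% of the member reads in the naive libraries and 12.4 to 16.7% in the tumor libraries. Without it, the members held 1.71 and 1.82% of naive and 2.55 to 3.56% of tumor eosinophil reads. In macrophages the share was 4.77 to 5.77% in naive libraries (median 5.39%) and 5.65 to 6.10% in tumor libraries (median 5.89%). The macrophage groups overlapped in this share and in the large subunit, at 2.94 to 3.51% and 3.38 to 3.72%. In the small subunit they lay next to each other without overlap, with naive libraries at 1.83 to 2.26% and tumor libraries at 2.27 to 2.42%.

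**Figure D1:**
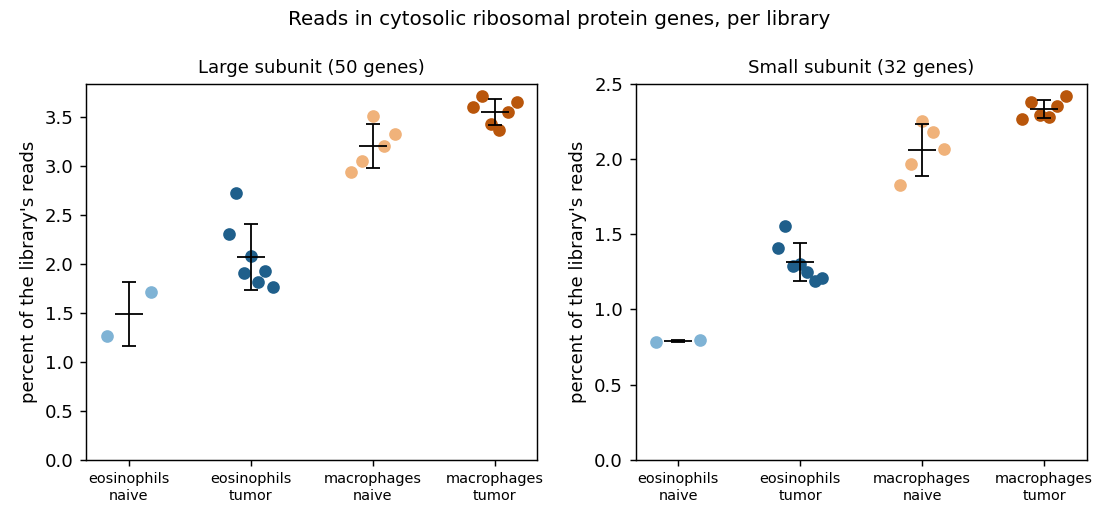
Percent of each library's reads in the large-subunit (left) and small-subunit (right) ribosomal protein genes, one point per library, with the group mean and SD in black. The small-subunit share is 0.783 and 0.795% in naive eosinophils and at least 1.19% in every tumor eosinophil library, while naive and tumor macrophages lie close together.

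Reads of mitochondrially encoded genes, which also enter these totals, took 17.9 and 24.6% of naive and 15.2 to 35.2% of tumor eosinophil reads. Among reads outside them, the members held 2.49 and 3.33% in naive eosinophils and 3.62 to 6.58% in tumor eosinophils, again without overlap. The 278 pseudogene entries of the family together held between 0.00846 and 0.0325% of a library's reads. The sources used here do not say how reads shared by a gene and its processed copies were assigned, so the value of a single member may carry reads of copies. In bulk samples, fewer cells of a type and less RNA per cell cannot be told apart.

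In eosinophils, 5 ribosomal protein genes rose in tumors and none fell. They were the small-subunit genes Rpsa, Rps14, Rps19 and Rps27 and the large-subunit gene Rpl19. Of the 77 members tested, 72 had a positive log2 change, and the median was 0.53 in the large and 0.53 in the small subunit, against 0.01 over all 12967 genes tested. The 5 members are 6.49% of the 77 tested, beside 2.42% of all genes called higher. All genes called lower made up 2.19%. Of the 33 members with an unadjusted p under 0.05 none was lower, beside 2553 of all 12967 genes with such a p in either direction. edgeR, DESeq2 and limma-voom called no member lower either. The test was limma on log2(normalised read count + 1), with a call at an adjusted p under 0.05 over all genes tested. Genes entered it with a value of at least 10 in at least 2 libraries. Scaling to total reads moved the median of all genes from 0.01 to 0.19 and those of the members to 0.71 and 0.72.

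Rpsa, a small-subunit protein that also serves as a laminin receptor, had 1173 normalised reads in naive eosinophils 1 and 200 in naive eosinophils 2. In the 7 tumor libraries it ranged from 1418 through a median of 1690 to 2113. All tumor libraries lay above both naive libraries, and the naive libraries lay further from each other than the tumor libraries did. The log2 change was 1.81 ± 0.47 (SE; adjusted p = 0.0483, limma). Rpsa lies at chr9:120127689-120132369 on the plus strand (GENCODE M21, GRCm38).

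Rps14, which sits at the platform of the small subunit, had 611 and 190 normalised reads in naive eosinophils 1 and 2. The tumor libraries ranged from 738 to 1099.7 with a median of 891, all above both naive values. Its log2 change was 1.44 ± 0.37 (SE; adjusted p = 0.0440, limma). Rps19, needed for maturation of the small subunit and mutated in Diamond-Blackfan anemia, had 404 and 179.9 normalised reads in the naive libraries. Its tumor libraries ranged from 579.5 to 764 (median 643), and its log2 change was 1.31 ± 0.30 (SE; adjusted p = 0.0287, limma). The groups did not overlap for either gene, and naive 2 was the lowest library for both.

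Rps27, a zinc-finger protein of the small subunit, had 114 and 67.6 normalised reads in naive and 145 to 249 in tumor eosinophils (median 228). Its log2 change was 1.22 ± 0.32 (SE; adjusted p = 0.0489, limma). Rpl19, which helps to bridge the subunits, had 1126 and 545 normalised reads in naive eosinophils. Its tumor libraries ranged from 1667 to 2280.1 with a median of 2088, and its log2 change was 1.37 ± 0.29 (SE; adjusted p = 0.0193, limma). Neither gene's groups overlapped, and naive 2 was again the lowest library. Rpl19 lies at chr11:98026710-98030492 on the plus strand, Rps19 at chr7:24884371-24889806 on the plus strand and Rps27 at chr3:90212522-90213651 on the minus strand (GENCODE M21, GRCm38).

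**Figure D2:**
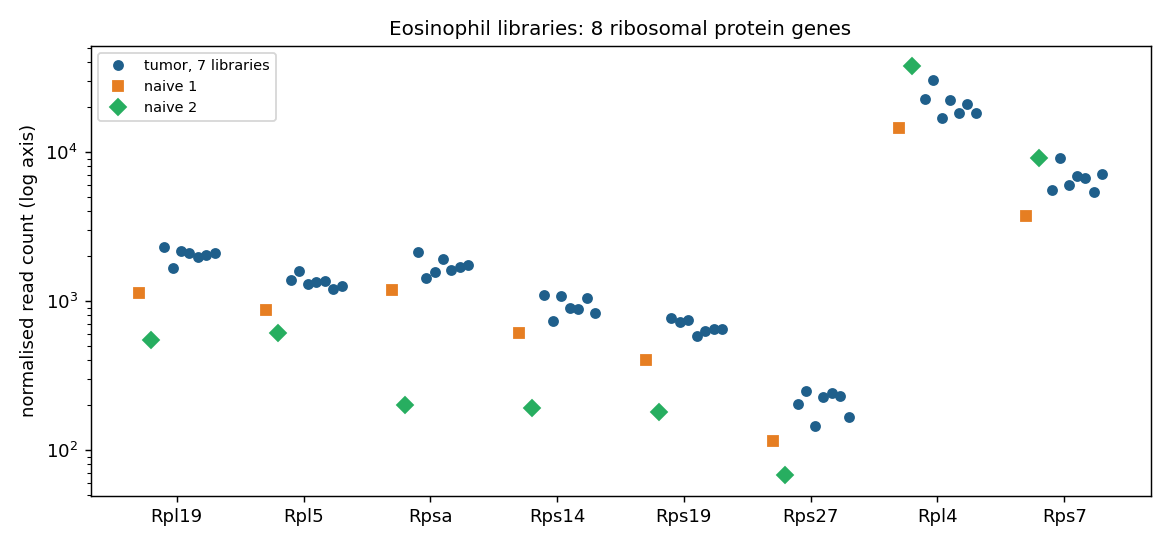
Normalised read counts (log axis) of 8 ribosomal protein genes in the 9 eosinophil libraries, with squares for naive 1, diamonds for naive 2 and circles for the 7 tumor libraries. For Rpsa, naive 1 holds 1173, naive 2 holds 200 and the tumor libraries hold 1418 to 2113, whereas for Rpl4 naive 2 holds 37381 and lies above every tumor library.

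These 5 calls leaned on the second naive library. Without naive eosinophils 2, limma called 0 members and 93 genes in all, 33 members had an unadjusted p under 0.05, all higher, and the medians of the members' log2 changes were 0.73 and 0.72 for the large and small subunit. Without naive eosinophils 1 it called 9 members higher, with medians of 0.30 and 0.27, while its calls over all genes were 951, with 4.33% higher. Single calls also ended elsewhere: Rpl19 kept its call under 18 of 20 alternatives and Rps19 under 16, but Rps14 under 8, Rps27 under 7 and Rpsa under 6. Leaving out tumor eosinophils 1, 3, 4, 5, 6 or 7 left 1, 3, 2, 2, 2 and 2 calls. On the recovered reads, edgeR's quasi-likelihood test called 1 member (Rpl19) and DESeq2 called 20.

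More members moved apart in position than passed the test. For 35 of the 77 tested members, 19 large and 16 small, every tumor eosinophil library lay above both naive libraries, which is 45.5% of them beside 7.33% of all genes. For none did every tumor library lie below both. Members with this separation included Rpl5, Rpl18, Rpl38, Rplp0, Rps2, Rps4x, Rps6, Rps15 and Rps28. Leaving out a library can only keep or raise the count of separated genes, among the members and among all genes. Without naive 2 the count was 69 of 77, beside 14.4% of all genes, and without naive 1 it was 38, beside 21.8%. It was 34 after TMM scaling of all 20 libraries and 49 after scaling to total reads.

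The members next to the threshold in the large subunit did not pass the test. Rpl5, which with Rpl11 carries 5S ribosomal RNA and can bind Mdm2, had 874 and 605 normalised reads in naive eosinophils. Its tumor libraries ranged from 1208 to 1587 with a median of 1334. Its groups did not overlap, and its log2 change of 0.88 ± 0.25 had an adjusted p of 0.0637 (limma). Its partner Rpl11 had 247 and 517 in naive and 311 to 521 in tumor eosinophils, with a log2 change of 0.10 ± 0.31 (adjusted p = 0.895, limma). Rpl18 had 922 and 721 normalised reads in naive eosinophils, every tumor library lay above both, and the log2 change was 0.90 ± 0.24 (adjusted p = 0.0561, limma).

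The stalk proteins Rplp0, Rplp1 and Rplp2, which recruit elongation factors to the large subunit, had unequal values. Rplp0, the base of the stalk, had 1395 and 932 normalised reads in naive and 1501 to 2567 in tumor eosinophils (median 2238). The groups did not overlap, and its log2 change was 0.82 ± 0.30 (adjusted p = 0.152, limma). Rplp1 had 300 and 619 in naive and 495 to 813 in tumor libraries, and Rplp2 had 1186 and 913 in naive and 950 to 1372 in tumor libraries. Both overlapped, with log2 changes of 0.36 ± 0.31 and 0.09 ± 0.25 (adjusted p = 0.571 and 0.874, limma). Whether the 3 stalk genes differed from each other in their change was not tested.

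Rps6, Rpl38, Rpl13a and Rpl41 have known roles beside their place in the ribosome or a known regulation, and did not pass the test in eosinophils. Rps6, the small-subunit protein phosphorylated downstream of mTOR, had a log2 change of 0.59 ± 0.24 (adjusted p = 0.188, limma) with no overlap between groups. Rpl38, which takes part in the translation of certain developmental transcripts, had 0.64 ± 0.28 (adjusted p = 0.223). Rpl13a, known for silencing inflammatory transcripts in myeloid cells, had 0.81 ± 0.59 (adjusted p = 0.488), with 31.5 ± 11.8 normalised reads in naive (SD, n = 2) and 62.3 ± 32.3 in tumor eosinophils (SD, n = 7). Rpl41, the shortest ribosomal protein, had 0.48 ± 0.30 (adjusted p = 0.409). At the lower end were Rpl9, Rpl4 and Rpl7a, with log2 changes of −0.23 ± 0.36, −0.15 ± 0.39 and −0.14 ± 0.33 (adjusted p = 0.771, 0.864 and 0.859, limma).

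The 2 naive eosinophil libraries were compared with each other member by member. Of 77, 59 were higher in naive 2 and 18 were lower, beside 6637 and 6174 of all 12967 genes, and 19 differed by more than 2-fold, which is 24.7% beside 39.2% of all genes tested. Rpsa was lowest in naive 2 relative to naive 1, by −2.54 on the log2 scale, followed by Rps14 (−1.68), Rpl10 (−1.54), Rpl35 (−1.17), Rps19 (−1.16) and Rpl19 (−1.05). At the other end Rpl22 (1.44), Rpl37 (1.42), Rpl4 (1.37) and Rps7 (1.29) were higher in naive 2; Rpl35 and Rpl22 were named after their values were seen. Of the 5 called members, 4 are thus among the 6 with the lowest values of naive 2 against naive 1.

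**Figure D3:**
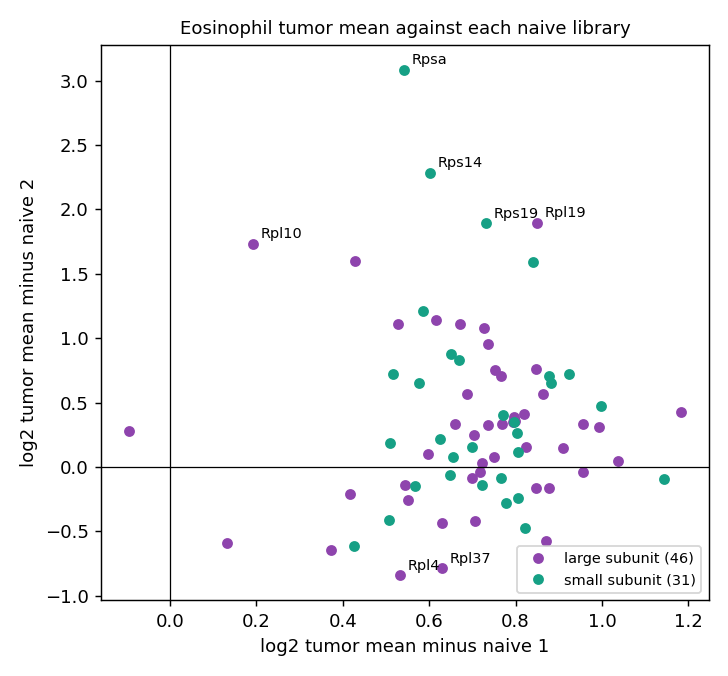
Each point is 1 of the 77 members tested in eosinophils, with the mean log2 value of the 7 tumor libraries minus naive 1 on the horizontal axis and minus naive 2 on the vertical axis. Against naive 1, 76 of 77 points lie to the right of 0; against naive 2, 52 lie above 0 and 25 below, from −0.84 for Rpl4 to 3.08 for Rpsa.

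Against naive 1 alone, the tumor mean was higher for 76 members and lower for 1, with a median log2 difference of 0.73 and a range from −0.10 to 1.18. Against naive 2 alone, it was higher for 52 and lower for 25, with a median of 0.28 and a range from −0.84 to 3.08. Rpl4 had 14437 and 37381 normalised reads in naive eosinophils 1 and 2, and 16811 to 30118 in the tumor libraries (median 20757). Rps7, a small-subunit protein named here and above after its values were seen, had 3702 and 9073 in the naive libraries and 5371 to 9073 in the tumor libraries. For both genes the tumor libraries lay between the naive ones or level with the higher one.

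Markers of other cells were also read in the eosinophil libraries. The macrophage and proliferation sums were higher in every tumor library than in both naive ones. The sums of the other lists overlapped between the groups. As sums of CPM (each gene's share of a library's reads), the 14 macrophage markers had 344 and 499 in naive eosinophils, with Cd163 at 0, and 948 to 1595 in tumor eosinophils, with 5 of the 11 tested called higher. In the macrophage libraries, whose share of member reads was larger, the same sum was 19614 to 34185. Of 13 neutrophil markers 5 were called higher. The neutrophil sums were 6349 and 11475 in naive, where Elane and Mpo were at 0, and 4799 to 14594 in tumor eosinophils. Their medians were close, at 8912 and 8969. Of 12 proliferation markers 1 was called higher, with sums of 134 in both naive and 149 to 507 in tumor libraries. B and plasma cell markers summed to 4490 and 7625 in naive and 7318 to 17658 in tumor eosinophils (Ighd at 0 in naive), with none of 12 called. None of the 5 mast cell markers tested was called, with sums of 3.62 and 10.8 in naive, where Mcpt4, Tpsb2, Fcer1a and Ms4a2 were at 0, and 4.90 to 289.6 in tumor eosinophils. T and NK cell markers summed to 29.5 and 46.8 in naive and 36.8 to 123 in tumor eosinophils, with Ncr1 at 0 throughout and none of 10 called. Stromal and endothelial markers summed to 1604 and 918 in naive and 429 to 2201 in tumor eosinophils, with 1 of 12 called lower. Epithelial markers summed to 1759 and 2850 in naive and 1944 to 5928 in tumor eosinophils, with 2 of 14 called lower. The part of these markers' cells in the result was not tested. The 14 eosinophil markers summed to 2742 and 3926 in naive and 1355 to 11070 in tumor libraries, with 5 called lower and 1 higher, and to at most 363 in macrophages.

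In macrophages the ribosomal protein genes were close to level between naive colon and tumors. Of 78 members tested, limma called 0, beside 17.1% of 11520 genes called in either direction. The medians of the log2 changes were 0.00 for the large and −0.02 for the small subunit, against 0.03 over all genes, with 36 members positive and 42 negative. The 95% interval of the change lay within ±1 on the log2 scale for 77 of the 78 members, and for 63.2% of all genes. Only 1 member had an unadjusted p under 0.05, with a lower value in tumors, beside 3495 of all 11520 genes in either direction. edgeR, DESeq2 and limma-voom also called 0, with 2, 1 and 4 members lower at an unadjusted p under 0.05. For no member did every tumor library lie above every naive one, beside 5.19% of all genes, nor below, beside 5.47%.

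**Figure D4:**
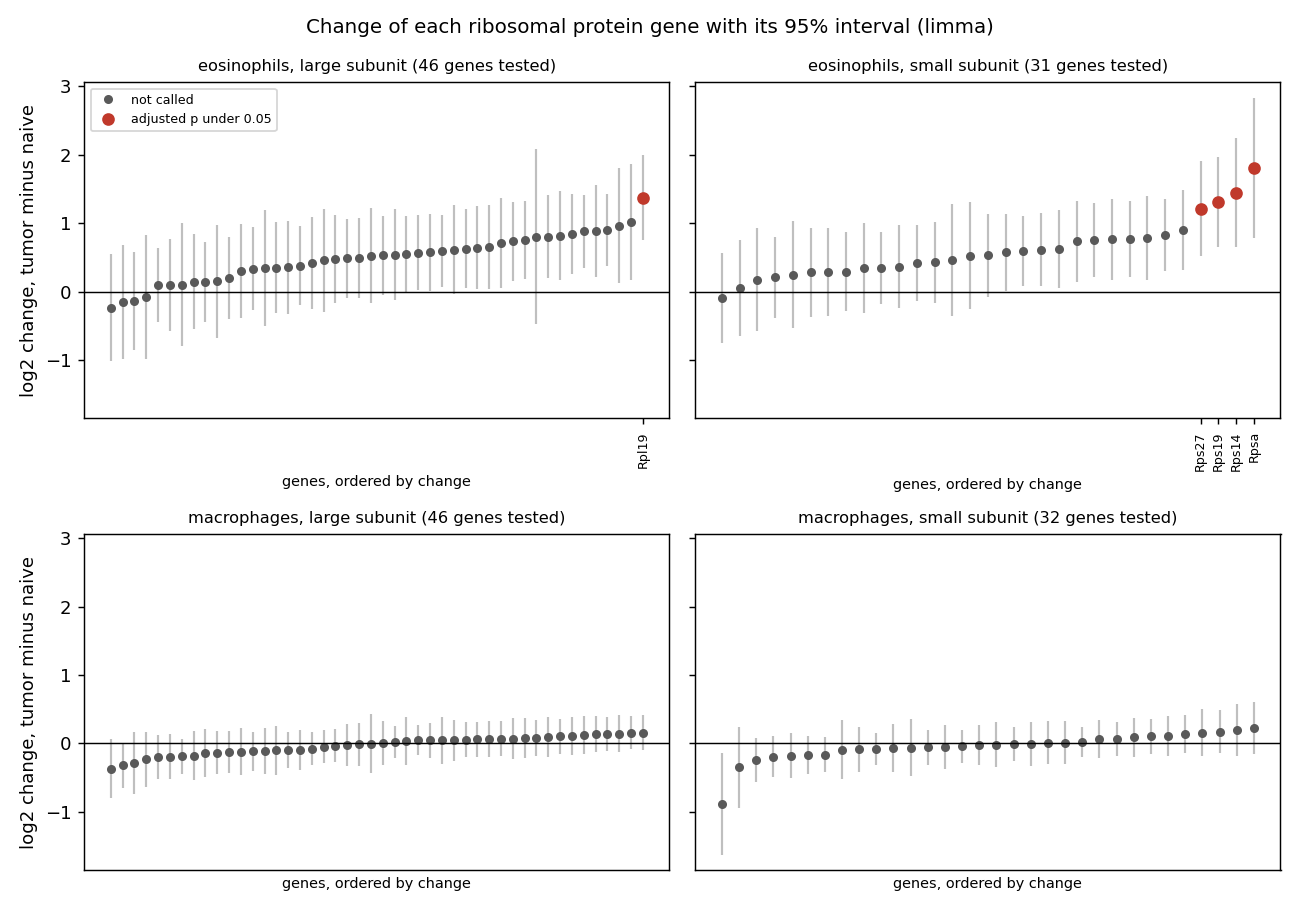
Log2 change (tumor minus naive) of each tested ribosomal protein gene with its 95% interval from limma, for eosinophils (top) and macrophages (bottom) and for the large (left) and small (right) subunit, with genes ordered by their change; red points, which are named, have an adjusted p under 0.05. In eosinophils 72 of 77 points lie above 0 and 5 are red, and in macrophages the points lie around 0 from −0.88 for Rps4l to 0.23 for Rps19, with none red.

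The members that rose in eosinophils had small changes in macrophages. Rpl19 had 3153 ± 492 normalised reads in naive (SD, n = 5) and 3423 ± 363 in tumor macrophages (SD, n = 6), a log2 change of 0.12 ± 0.13 with a 95% interval from −0.15 to 0.40. Rpsa had a log2 change of −0.02 with an interval from −0.32 to 0.27, and Rps14 one of −0.17 with an interval from −0.45 to 0.11. Rps19 had the most positive change, 0.23 with an interval from −0.15 to 0.60, and Rps27 had −0.09 with an interval from −0.52 to 0.34. Each of these genes overlapped between the groups. Rps2 and Rps18, next after Rps19, had log2 changes of 0.20 ± 0.18 and 0.17 ± 0.14 (adjusted p = 0.497 and 0.455, limma).

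At the negative end stood Rps4l, Rpl37, Rps15 and Rpl35a. Rps4l, which GENCODE M21 lists as a transcribed processed pseudogene, had 16.7, 18.2, 21.4, 25.9 and 29.8 normalised reads in naive macrophages. The tumor libraries ranged from 5.65 through a median of 11.7 to 24.5. The groups overlapped through tumor library 6, and the log2 change was −0.88 ± 0.35 (adjusted p = 0.10, limma); without that library it was −1.09 (adjusted p = 0.0393). Rps4x, the X-linked gene of the same protein family, had 1538 ± 200 in naive and 1473 ± 132 in tumor macrophages and a log2 change of −0.06 ± 0.12 (adjusted p = 0.793). Rpl37 and Rpl35a had log2 changes of −0.37 ± 0.20 and −0.32 ± 0.15 (adjusted p = 0.244 and 0.175).

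Some members fell into sets of macrophage libraries that the labels do not name. Naive 1, 3 and 5 with tumor 1 and 2 stood apart from naive 2 and 4 with tumor 3 to 6 along the first component of the within-group deviations of all other genes, which held 23.8% of that variance; naive 3 lay near 0 on it. Of 78 members, 20 were higher in every library of the first set than in every library of the second, naive and tumor libraries alike, and 4 were lower (Rpl13, Rplp1, Rps3 and Rps19). That is 25.6 and 5.13% of them, beside 3.62 and 3.14% of all genes tested. The sets were defined from the data, so these counts are a description. Rps15, a small-subunit protein close to the decoding site, had 6689, 8476 and 7378 normalised reads in naive 1, 3 and 5 and 3759 and 4046 in naive 2 and 4. Tumor 1 and 2 had 7186 and 7692, and tumor 3 to 6 had 3323 to 3722. The log2 difference between the sets was 0.94 among naive and 1.08 among tumor libraries, while the log2 change between tumor and naive macrophages was −0.35 ± 0.28 (adjusted p = 0.432, limma).

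**Figure D5:**
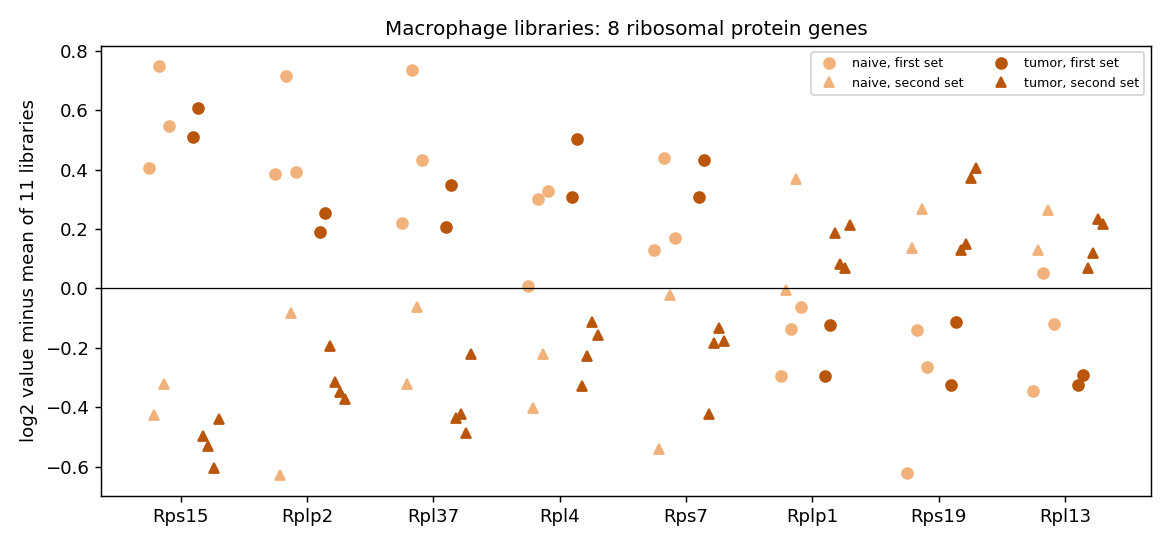
Log2 normalised reads of 8 ribosomal protein genes in the 11 macrophage libraries, minus the gene's mean over them, with circles for the first set of libraries, triangles for the second, and light and dark colour for naive and tumor. In Rps15, Rplp2, Rpl37, Rpl4 and Rps7 the circles lie above the triangles in both groups, and in Rplp1, Rps19 and Rpl13 below them.

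With the set as a term in the fit, an alternative added after seeing the data, Rps2 was called higher (log2 change 0.34) and Rps4l lower (−1.03). Within the first set alone and within the second set alone limma called 0 members, with 0 and 1 at an unadjusted p under 0.05. Scaling to total reads called 4 of 78 members higher in tumor macrophages, Rpl10a, Rpl19, Rplp0 and Rps2 (Rpl10a named after its value was seen), beside 15.5% of all genes called higher under that scaling. That scaling moved the median log2 change of all genes from 0.03 to 0.23 and the members' medians to 0.21 and 0.19, so that the members lay close to all genes under either scaling.

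The tumor effect was compared directly between the cell types in 1 fit of all 20 libraries, scaled together by TMM factors. The log2 change was larger in eosinophils for 74 of 78 members. It was called larger for 3 of them, Rps14, Rpl19 and Rpsa, or 3.85% of them beside 1.87% of all genes, and called smaller for 0. The differences were 1.51 ± 0.37 for Rps14 (adjusted p = 0.0226), 1.14 ± 0.30 for Rpl19 (adjusted p = 0.0318) and 1.73 ± 0.47 for Rpsa (adjusted p = 0.0401, limma). Rps27 had a difference of 1.2 ± 0.37 (adjusted p = 0.0673) and Rps19 one of 0.98 ± 0.37 (adjusted p = 0.140). The median difference was 0.41, against −0.07 over all genes. An unadjusted p under 0.05 went to 20 members with a larger and to none with a smaller change. Of all 14929 genes, 2815 had such a p in either direction. edgeR called 4 members larger and 0 smaller, without Rpsa (adjusted p = 0.126, edgeR). None of the limma calls remained without naive eosinophils 2, where the differences of Rps14, Rpl19 and Rpsa were 0.60, 0.55 and 0.39. The members' median difference was 0.55 there and 0.21 without naive eosinophils 1. Without macrophages naive 3, tumor 3 or tumor 4 limma called 1 member. Rpsa lost this call under 15 of 28 alternatives, among them leaving out tumor eosinophils 1 or 7 or any 1 macrophage library other than tumor 2, whereas Rpl19 lost it under 5 and Rps14 under 1.

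In level, most ribosomal protein genes were lower in eosinophils than in macrophages of the same kind of tissue. In tumors 57 of 78 members were called lower in eosinophils, 34 large and 23 small, or 73.1% beside 24.3% of all genes, with a median log2 difference of −0.77. In naive mice 62 were called lower, 35 large and 27 small, or 79.5% beside 15.5% of all genes, with a median of −1.18. Rps19 had 850 ± 117 jointly scaled reads in tumor eosinophils (SD, n = 7) and 3423 ± 723 in tumor macrophages (SD, n = 6), a log2 difference of −1.99 ± 0.20 (adjusted p = 5.1e-08, limma). Rps4x had 444 ± 91.8 and 1613 ± 190.3, a log2 difference of −1.87 ± 0.15 (adjusted p = 1.5e-09). The stalk protein Rplp1 and the small-subunit protein Rps18 had log2 differences of −1.68 ± 0.18 and −1.68 ± 0.17 (adjusted p = 1.1e-07 and 3.4e-08). In naive mice the differences of Rps19 and Rps4x were −2.97 ± 0.31 and −2.44 ± 0.23 (adjusted p = 8.9e-08 and 2.6e-08). The B and plasma cell marker sums given above were higher in every naive macrophage library than in the naive eosinophil libraries, and overlapped in tumors. The part of other cells in these level differences was not tested.

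Rps15 was the only member called higher in tumor eosinophils than in tumor macrophages in that fit. It had 10156 ± 1844.5 jointly scaled reads in tumor eosinophils and 5237 ± 2068 in tumor macrophages, a log2 difference of 1.02 ± 0.23 (adjusted p = 0.00099). Its macrophage values were those that fell into the library sets described above. In naive colons its difference was 0.01 ± 0.34 (adjusted p = 0.987), and no member was called higher there, by limma or edgeR, or had an unadjusted p under 0.05 in that direction. Members not called in tumors included Rpl4 (−0.20), Rpl37 (−0.24), Rplp2 (−0.18) and Rps27 (0.24). Scaling to total reads moved the median over all genes by about the same amount in both comparisons, from −0.06 to −0.48 in tumors and from 0.00 to −0.47 in naive colons. The members' medians then stood at −1.19 and −1.68.

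Paralogs that are known for expression in particular tissues were near or at the lower limit. Rpl10l, the autosomal testis copy of X-linked Rpl10, and Rpl6l had 0 reads in every library. Rpl39l, known from testis and some tumors, had 3 reads in all eosinophil and 18 in all macrophage libraries, and Rpl3l, known from muscle, had 6 and 10. Their partners were well above: Rpl10 had 104 ± 18.1 normalised reads in tumor eosinophils and 155 ± 15.5 in tumor macrophages, and Rpl3 and Rpl39 had log2 changes in eosinophils of 0.10 ± 0.41 and 0.35 ± 0.31 (adjusted p = 0.921 and 0.572, limma). Rps27l, a p53-induced relative of Rps27, had 71.4 and 116 in naive and 96.0 to 207 in tumor eosinophils. Its log2 change was 0.46 ± 0.38 (adjusted p = 0.540), with overlapping groups, beside the 1.22 of Rps27; the difference between the paralogs was not tested.

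Genes that work with the ribosome were read from lists chosen alongside the members. Of 8 tested ribosomal genes outside the name rule, 0 were called in either cell type. In eosinophils their median log2 change was 0.35, with 0.79 ± 0.27 for Fau (adjusted p = 0.130) and −1.25 ± 0.41 for Rpl22l1 (adjusted p = 0.113). Other transcripts with a 5′ oligopyrimidine motif had 18 of 23 positive changes in eosinophils and a median of 0.36, with 0 called. Among them the elongation factor genes Eef1b2 and Eef1a1 had log2 changes of 0.91 ± 0.25 and 0.82 ± 0.26 (adjusted p = 0.0579 and 0.0961). The separate ribosomes of mitochondria had 60 of 74 positive changes in eosinophils, a median of 0.43 and 0 called. In macrophages 1 of 77 rose and 2 fell, with a median of 0.13, beside 8.5% of all genes called higher and 8.59% called lower.

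Some ribosome assembly genes passed the test in each cell type, all of them higher in tumors. In eosinophils 3 of 52 nucleolar and assembly genes rose and 0 fell, beside the 2.42% of all genes called higher. They were Gar1 and Nhp2, proteins of the H/ACA particles that modify ribosomal RNA, and the nucleolar GTPase gene Gnl3. Their log2 changes were 2.61 ± 0.58, 1.77 ± 0.44 and 1.52 ± 0.35 (adjusted p = 0.0246, 0.0413 and 0.0271, limma). Gar1 had a mean of 4.375 normalised reads in naive eosinophils and passed the filter only through tumor libraries. In macrophages 6 of 54 rose and 0 fell, beside 8.5% of all genes called higher, among them Rrs1, which takes 5S RNA into the large subunit, at 1.44 ± 0.17 (adjusted p = 3.7e-05), Rrp1b at 0.73 ± 0.16 (adjusted p = 0.0064) and Nop56, of the methylation particles, at 0.51 ± 0.15 (adjusted p = 0.0288). Of 25 alternatives in macrophages, the call of Rrs1 was lost under 0, that of Rrp1b under 1 (the first set of libraries alone) and that of Nop56 under 10, including leaving out naive 1, 2 or 5 or tumor 3, 4, 5 or 6. All 3 eosinophil calls were lost without naive eosinophils 2, where the log2 changes were 1.63 for Gar1, 1.38 for Nhp2 and 1.53 for Gnl3. All 3 were also lost with limma-voom. That of Nhp2 was lost without tumor eosinophils 1, 2, 3, 4 or 6, and that of Gnl3 without naive eosinophils 1 or tumor eosinophils 4. With edgeR those of Gar1 and Nhp2 were lost.

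Of 38 initiation and elongation factor genes tested in eosinophils, 0 rose and 2 fell, beside 2.19% of all genes called lower. Eif1, which guards start codon choice, had a log2 change of −1.46 ± 0.34 (adjusted p = 0.0292), and the helicase gene Eif4a2 had −1.20 ± 0.29 (adjusted p = 0.0324). In macrophages 6 of 38 rose and 0 fell, again beside 8.5% of all genes called higher, among them Eef1e1 (1.08 ± 0.25, adjusted p = 0.0072), Eif4g2 (0.48 ± 0.13, adjusted p = 0.0166) and Eif2s2 (0.45 ± 0.12, adjusted p = 0.0181). In macrophages the call of Eef1e1 was lost under 2 of 23 alternatives and those of Eif4g2 and Eif2s2 under 3 of 25, for Eif2s2 including leaving out naive 2. Both eosinophil calls were lost without naive eosinophils 2, where the log2 changes were −0.95 for Eif1 and −0.77 for Eif4a2. Both were also lost with no filter on low values, with the replicate number as a block and without tumor eosinophils 1. That of Eif4a2 was lost without tumor eosinophils 3, 4, 6 or 7 and with limma-voom as well.

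Among regulators of ribosome production, 27 genes of mTOR, MYC and translational control were tested in each cell type. In eosinophils 1 rose and 2 fell, beside 2.42% of all genes called higher and 2.19% called lower. In macrophages 2 rose and 2 fell (Pdcd4 and Mxd4), beside 8.5 and 8.59%. Myc, which drives transcription of ribosomal genes, was at 0 in both naive eosinophil libraries. In tumor eosinophils it had 7.92 ± 3.69 normalised reads (SD, n = 7), with an adjusted p of 0.0415 (limma). Myc thus passed the filter only through tumor libraries. Its call was lost with a pseudocount of 5 (adjusted p = 0.118, limma) and with limma-voom (adjusted p = 0.372). It was also lost without tumor eosinophils 1, 2, 3, 4 or 7. Its partner Max fell by 1.30 on the log2 scale in eosinophils (adjusted p = 0.0242), as did Eef2k, a brake on elongation, by 1.44 (adjusted p = 0.0226). Mdm2, the p53 ligase to which Rpl5 and Rpl11 bind, fell by 1.46 (adjusted p = 0.0169) and was the only gene called among 13 of the p53 and ribosome quality control list. These 4 calls were lost without naive eosinophils 2, where the log2 changes were 3.06 for Myc, −0.77 for Max, −1.67 for Eef2k and −1.10 for Mdm2. That of Eef2k was also lost without naive eosinophils 1, with scaling to total reads and with limma-voom. With the replicate number as a block, those of Myc, Max and Eef2k were lost. In macrophages Ddit4, an inhibitor of mTOR, rose by 1.97 (adjusted p = 0.0014), Mxd1 rose by 0.77 (adjusted p = 0.0166), and Pdcd4, an inhibitor of Eif4a, fell by 0.97 (adjusted p = 0.00090). Of the genes for RNA polymerase I and ribosomal DNA transcription, 0 of 17 were called in eosinophils and 0 of 18 in macrophages; Polr2f had the smallest p in eosinophils, with a log2 change of 1.48 ± 0.49 (adjusted p = 0.11).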

How the data were processed

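For each cell type the authors deposited a table of normalised signal: gene read counts divided by a factor per library. Every non-zero value (374526, 100.0% in each library within 0.1 read) was a whole multiple of what 1 read was worth, so reads and depth were recovered. Per the submitters' processing notes, the build was GRCm38.p5 and the tools named were DESeq2 1.14.1, HTSeq 0.6.1, TopHat2 2.1.0 with Bowtie2 2.2.6, Trim Galore and FastQC 0.11.5. The sources used here do not give their order, settings, annotation, strand use or the joining of technical replicates. Entries with a bare number as name (27 per table, at most 0.1323% of reads) were left out; 181 entries carry repeated names.

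The members and gene lists were chosen with earlier results of these data known. Each cell type was fitted alone with limma 3.58.1 in R 4.3.3 (moderated test with a trend, two-sided) on log2(value + 1), so a fold change of low genes is understated. Genes entered with at least 10 in at least 2 eosinophil or 5 macrophage libraries, and p-values were adjusted by Benjamini-Hochberg over all genes tested (calls at 0.05). Errors after log2 changes are standard errors, intervals are at 95%, and adjusted p-values with no tool named beside them are limma's. The comparison between cell types used recovered reads scaled together by TMM factors (edgeR 4.0.16). On recovered reads edgeR called 531 genes in eosinophils and 1944 in macrophages, and DESeq2 1.42.0 called 1363 and 2256, beside 598 and 1968 for limma. Other scalings, filters, pseudocounts, tools and left-out libraries were tried.

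Genes named were, per cell type and subunit, the 4 with the smallest p, the 3 most positive and negative changes per cell type, up to 4 called for the difference between cell types, a list of paralogs and members with known roles, and the 3 smallest p of each pathway list; some genes under this rule are not reported here. The list of mitochondrial ribosomal proteins was added by name pattern. Lists share genes, such as Eef1b2. Promoter stretches come from RefSeq, GRCm38.p6.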

Additional observations from a re-analysis of the deposited data

Results flagged for a closer look

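Of 110 groups of values examined for a library far from the rest, 11 held one. Chance gives about 1 in 20 such groups if they are independent. These groups share libraries and are not, so the 2 rates cannot be compared as a test. In eosinophils all 8 lay in tumor library 2, which stood above the other tumor libraries in Rpl35a (2677 normalised reads), Rpl36a (1933), Rpl37 (3272), Rpl38 (4080), Rpl4 (30118), Rpl7a (498), Rplp1 (813) and Rps18 (1041). Among the eosinophil libraries it also had the largest share of member reads, 4.28%, and the deepest sequencing. None of these 8 genes was called in eosinophils. In macrophages, naive 3 stood above the other naive libraries in Rpl18 (3159), tumor 6 above the other tumor libraries in Rpl18 (3579), and naive 1 below the other naive libraries in Rps6 (1198). The tumor effect differed between eosinophils and macrophages, by the limma test of the difference itself, for Rpl19 (1.14 on the log2 scale), Rps14 (1.51) and Rpsa (1.73). Each of these 3 differences ended without naive eosinophils 2, where the values were 0.55, 0.60 and 0.39.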

How the results depend on the processing

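The direction of the eosinophil medians was positive under every alternative run, and the number of calls was not stable. Against 5 members called higher, 2 were called with no filter on low values (and 1 lower against 0), 2 with TMM scaling, 1 with edgeR, 20 with DESeq2 and 1 with limma-voom; leaving out 1 library gave 0 (naive 2) to 9 (naive 1), with small-subunit medians of 0.27 to 0.72. The count of members with every tumor library above every naive one ran from 35 to 69 when 1 library was left out. Dropping a library loosens that condition, so this count could not fall below 35. In macrophages, scaling to total reads gave 4 higher and medians of 0.21 and 0.19; the library set as a term gave 1 higher and 1 lower; leaving out 1 library gave 0 to 1 lower. For the larger tumor effect in eosinophils, against 3 calls, no filter gave 1 (and 1 smaller against 0), a filter at 50 gave 6, total reads 7, and both joint median-of-ratios factors and factors without ribosomal and mitochondrial genes gave 9; leaving out 1 library gave 0 to 11. Against 1 member higher in tumor eosinophils than in tumor macrophages, a filter at 50, both of those factor sets and edgeR gave 2, and leaving out 1 library gave 1 to 2. Total reads turned the Rpl35a level difference between tumor eosinophils and macrophages from 0.08 to −0.34. The causes of these shifts were not tested, apart from fewer libraries or more genes entering a fit.

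With the replicate number as a block, 3 members were called in eosinophils (Rpl13a, Rps19 and Rpsa), and 0 in macrophages. Same-numbered libraries had correlations of 0.13 and 0.12 over 2 eosinophil pairs and of −0.31 to 0.06 over 5 macrophage pairs. Each naive eosinophil library correlated best with the tumor library of its own number, and no naive macrophage library did. Deviations of 2 libraries from their mean mirror each other, so the 2 eosinophil values are not independent and cannot decide a pairing. The labels name no pairing beyond the number.

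With 2 naive eosinophil libraries the median standard error of a member's log2 change was 0.28, against 0.14 in macrophages, and 22 of 77 intervals lay within ±1 on the log2 scale.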
